A study of Mus musculus with 6 samples.

Results

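Human chromosome 21 orthologues are the mouse genes that correspond to genes on the chromosome present in an extra copy in Down syndrome. A set of 44 of them was followed in megakaryocyte progenitors, leaving out the ETS, interferon, Runx1 and respiratory chain genes of the same chromosome. Each gene was read on the probe set with the highest mean log2 signal over the 6 arrays, among the probe sets whose annotation gives that gene and no other. Such a probe set was found for 43 of the 44 genes, against 18193 genes over the whole array. Btg3 had none and is not tested as a member. Of the 43, 38 passed a filter on low signal and were tested, among 11645 genes tested in all. Sim2, Hunk, Ripk4, Bace2 and Adamts5 did not pass it.

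The RNA came from C57BL/6 mice with the GATA1s genotype, in which the transcription factor GATA1 is made in an amino-terminally shortened form. Megakaryocyte progenitors, the cells that give rise to platelet-forming megakaryocytes, were taken by flow sorting as cells negative for lineage markers and Sca-1 and positive for c-kit, CD150 and CD41. The adult group was 3 samples of bone marrow from mice 12 to 18 weeks old. The fetal group was 3 samples of liver at E13.5. All 6 samples therefore share the genotype, and progenitors with the full-length protein were not analysed here. The labels name no extra chromosome, so, as far as they say, these genes were at their usual dosage. The labels call the 3 samples of each tissue biological replicates. They do not say how the GATA1s allele was made, and they do not give the number of animals behind each sample. A p-value here measures the spread between these samples, which may be single animals or pools.

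In children with trisomy 21, mutations that leave only GATA1s are found in transient abnormal myelopoiesis, which begins before birth, and in the megakaryoblastic leukaemia that can follow it. The genes of chromosome 21 are for that reason studied as possible partners of GATA1s. DYRK1A, a protein kinase, CHAF1B, a subunit of the histone chaperone that assembles nucleosomes behind replication forks, HMGN1, a nucleosome-binding protein, and BACH1, a repressor of haem and oxidative stress genes, are among those studied in blood cells. The comparison here asks how the orthologues differed between fetal liver and adult bone marrow progenitors of this genotype.

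Across whole arrays, the median signal was 65.9 to 74.6 in bone marrow and 52.0 to 59.1 in fetal liver, and log2 signals of arrays from the same tissue correlated at 0.954 to 0.962 and those of different tissues at 0.920 to 0.932, over probe sets, which are not independent replicates. Gata1 itself rose from 2999 ± 476 to 4188 ± 372 (SD, n = 3 each; log2 fold change 0.49 ± 0.12, limma adjusted p = 0.0138), a value that says nothing of the shortened form. Of the sort markers, Itga2b (CD41) and Slamf1 (CD150) did not pass the test and Kit fell (-0.62, adjusted p = 0.0141). Markers of other cell types also differed. The summed signal of 11 granulocyte and monocyte markers was 55303 to 66951 in bone marrow and 7273 to 9206 in fetal liver, and all 11 fell, with none at 0 or below background on all arrays of a tissue. For the other lists the number that fell was 5 of 5 tested macrophage markers (summed signal 1539 to 1907 against 273 to 303), 5 of 6 lymphoid markers (3135 to 4617 against 1285 to 1495), 4 of 5 mast cell and basophil markers (10260 to 10739 against 6196 to 7124), 4 of 6 erythroid markers, where Epor rose (4336 to 11278 against 2249 to 2962), and 5 of 6 stem and early progenitor markers (5251 to 5928 against 1585 to 1977). These sums include members too low to test. Most of the mast cell and basophil sum was Gata2 (means 6754 in bone marrow and 6552 in fetal liver), which did not pass. In fetal liver most of the lymphoid sum was Cd79b (means 1482 in bone marrow and 1268 in fetal liver), which did not pass either. Some of the falls were of genes whose geometric mean in fetal liver lay under the filter's signal of 22.9. They were Ltf, Adgre1, Vcam1, Cd79a, Ebf1, Igll1, Dntt, Fcer1a, Mcpt8, Ms4a2, Epb42 and Flt3. These passed the filter through bone marrow alone and had to differ, so the counts are a description only. In fetal liver Cd79a, Rag1, Cd3e, Fcer1a, Mcpt8, C1qc and Vcam1 lay below the background level on all 3 arrays, and Pax5 and Hba-a1 did so in both tissues. Endothelial markers rose in 3 of 4 tested cases (1929 to 2194 against 3341 to 4276). Emcn, too low to test, was lower on every fetal liver array (39.1 ± 6.58 and 15.2 ± 8.22), and Cdh5 lay near background in both tissues. Of 3 tested hepatoblast markers 1 rose and 1 fell (252 to 298 against 1013 to 1474). Most of the higher sum was Dlk1 (means 13.8 and 1097), which passed the filter through fetal liver alone, while Afp fell (221 to 62.6). Of 8 megakaryocyte markers 2 rose, the others not passing (19226 to 22956 against 15544 to 28719). The part of these differences in the values of the orthologues was not tested. Fewer cells of a type and less RNA per cell cannot be told apart in such bulk samples.

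Most of the orthologues differed little between the tissues. With limma, 11 of 38 passed at an adjusted p under 0.05 (28.9%, against 36.1% of all genes tested). In fetal liver 3 were higher, Hmgn1, Cct8 and Gart (7.89%, against 17.8% of all genes), and 8 were lower, App, Jam2, Cbr3, Itsn1, Usp25, Cryzl1, Hspa13 and Cbr1 (21.1%, against 18.3%). The rises were small, the largest a log2 difference of 0.38, and no member rose 2-fold or more, as 4.01% of all genes did. App, Jam2, Cbr3 and Itsn1 fell 2-fold or more, which is 10.5% of the members tested against 10.6% of all genes. Cbr3 and Jam2 passed the signal filter only through bone marrow, since their geometric means in fetal liver (15.3 and 10.4) lay under its signal of 22.9. They therefore had to differ, and their presence in these counts is a description only. The log2 fold change, which is fetal liver minus bone marrow in every value given, had a median of -0.04 over the members and 0.04 over all genes. Its median size without sign was 0.22 over the members and 0.29 over all genes. It lay within 0.25 of zero for 21 of the 38 members (55.3%) and for 44.2% of all genes. The arrays of the tissues did not overlap for 19 of the 38 members, against 50.5% of all genes, with fetal liver above for 8 (26.7% of all genes) and below for 11 (23.7%). The balance of small differences depends on scaling. When each array was centred on its median, the median over all genes moved from 0.04 to 0.38, the members split into 16 higher and 4 lower, and all genes into 5377 higher and 1348 lower in place of 2074 and 2134. Centring over the probe sets above the filter, an alternative chosen after seeing the data, moved that median to 0.20, with 7 members higher and 5 lower and all genes at 3649 and 1686. The falls of Usp25, Cryzl1, Hspa13 and Cbr1 did not pass under median centring (-0.30, -0.14, -0.10 and -0.07). Differences smaller than these shifts have no settled direction.

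**Figure D1:**
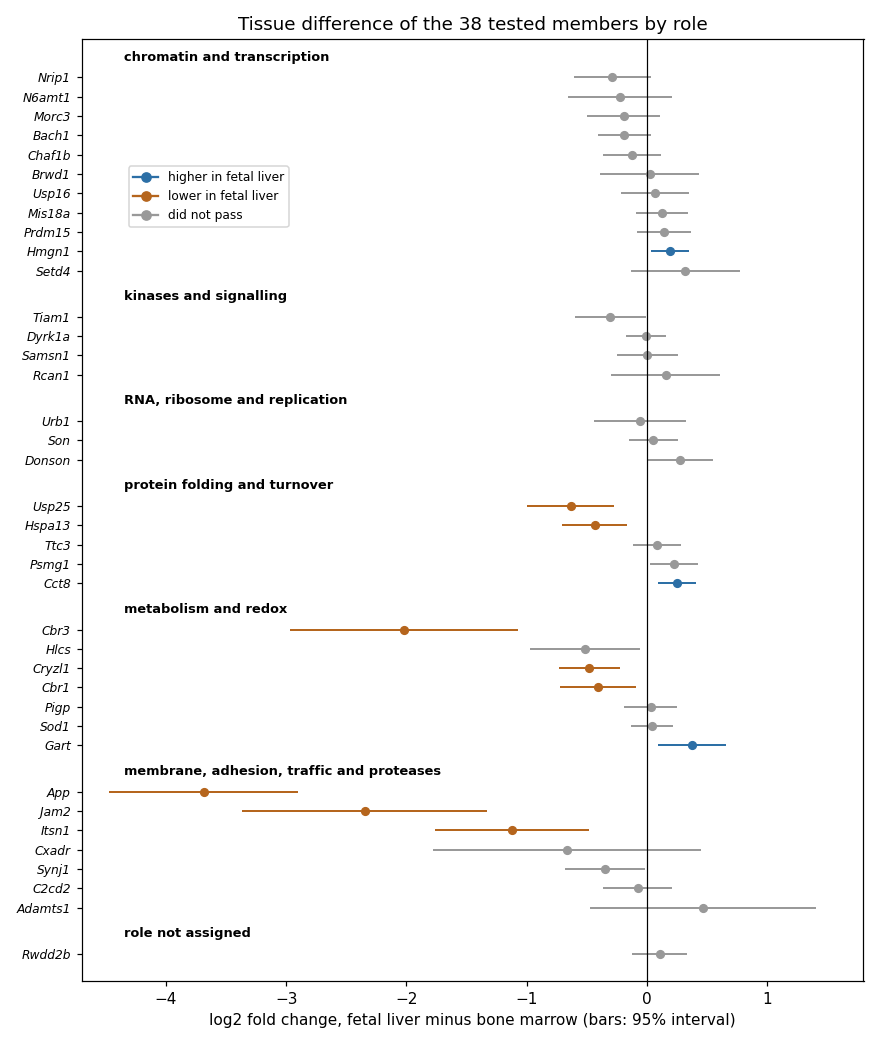
Tissue difference in log2 signal (x axis, fetal liver minus bone marrow) of the 38 tested orthologues, grouped by role on the y axis, with bars for the 95% confidence interval and colour for the limma call. The 4 members that fell 2-fold or more lie among the metabolic and membrane genes, and the other points lie between -0.66 and 0.46.

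Among the 12 genes of chromatin and transcription, 11 were tested, 1 rose and none fell, and the log2 fold changes ran from -0.29 to 0.32. Over all genes tested 17.8% rose and 18.3% fell. The counts by role, here and below, are of few genes and are a description only. Hmgn1, which loosens chromatin by binding nucleosomes, gave 7129, 7088 and 6681 in bone marrow and 8371, 7925 and 7611 in fetal liver. All fetal liver arrays lay above all bone marrow arrays, by a narrow margin. It rose from 6966 ± 247 to 7969 ± 382, a log2 fold change of 0.19 ± 0.07 (SE, limma adjusted p = 0.0469). The call was lost in 13 of 20 alternative settings, among them without bone marrow replicate 1 (0.21, adjusted p = 0.0886), 2 (0.21, 0.101) or 3 (0.16, 0.201) and without fetal liver replicate 1 (0.16, 0.111) or 3 (0.23, 0.0594). When every probe set was adjusted together this probe set did not pass (adjusted p = 0.0633), and of the other 3 tested, 2 rose (0.37, adjusted p = 0.00479, and 0.24, adjusted p = 0.0330) and 1 did not pass. The brightest probe set carries the array maker's suffix for probes that can match related sequences, so which copy of this multicopy family it measured is uncertain.

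Bach1, the repressor of haem and oxidative stress genes, gave 3188, 3398 and 3291 in bone marrow and 3183, 2576 and 2942 in fetal liver. The tissues did not overlap, but the highest fetal liver array came within a few units of the lowest bone marrow array. Its log2 fold change was -0.19 ± 0.09 (95% interval -0.40 to 0.02) and did not pass (limma adjusted p = 0.150). Chaf1b, the histone chaperone subunit, gave 1434, 1490.1 and 1366 in bone marrow and 1224, 1448 and 1276 in fetal liver, where replicate 2 lay among the bone marrow values. It had a log2 fold change of -0.12 ± 0.10 (interval -0.35 to 0.11, limma adjusted p = 0.383). Usp16 removes ubiquitin from histone H2A. It gave 661, 655 and 675 in bone marrow and 732, 614 and 749.8 in fetal liver, where replicates fell on both sides of the tight bone marrow group. The difference was 0.07 ± 0.12 (interval -0.21 to 0.34, limma adjusted p = 0.692).

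The other 7 tested genes of this role did not pass either. Nrip1, a corepressor of nuclear receptors, was measured at 3387 ± 333 in bone marrow and 2802 ± 546 in fetal liver on its brightest probe set (log2 fold change -0.29 ± 0.14, interval -0.60 to 0.02, limma adjusted p = 0.134). Without fetal liver replicate 1 it passed (-0.44, adjusted p = 0.0130). On 3 of its 6 probe sets it was called lower, the largest fall reading 933, 769 and 1230.3 in bone marrow and 607, 477 and 427 in fetal liver (-0.94, adjusted p = 0.00588 over all probe sets). The zinc finger gene Prdm15 (0.14), the ATPase gene Morc3 (-0.20), the methyltransferase genes Setd4 (0.32) and N6amt1 (-0.22), Mis18a (0.12), which helps load the centromeric histone, and the bromodomain gene Brwd1 (0.02) had adjusted p-values of 0.240 or more. The interval was widest for Setd4, from -0.13 to 0.76, which leaves room for a rise that these arrays could not show. Sim2, a transcription factor of neural development, lay below the background level on all 6 arrays, a level set at a signal of 10.6 from bacterial control probe sets without spiked RNA.

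None of the 4 tested genes of kinases and signalling passed, of 7 in the list, and their log2 fold changes ran from -0.31 to 0.16. Dyrk1a, a kinase with many nuclear and cytoplasmic substrates, gave 4465, 4327 and 4369 in bone marrow and 4333, 4573 and 4165 in fetal liver. The arrays of the tissues were interleaved. Its log2 fold change was -0.01 ± 0.07 (limma adjusted p = 0.919), with an interval from -0.17 to 0.15, and the other 2 tested probe sets stood at -0.06 and -0.02. Under median centring, which adds the shift given above, the sign turned and it passed (0.33, adjusted p = 0.0370). Rcan1, an inhibitor of the phosphatase calcineurin, gave 402, 528 and 435 in bone marrow and 653, 393 and 496 in fetal liver. Fetal liver held both the highest and the lowest array. The log2 fold change was 0.16 ± 0.20 (interval -0.29 to 0.60, limma adjusted p = 0.578).

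Tiam1, an activator of the small GTPase Rac, stood at 1337 ± 72.6 in bone marrow and 1088 ± 164 in fetal liver (log2 fold change -0.31 ± 0.13, limma adjusted p = 0.0891). Without fetal liver replicate 1 it passed (-0.41, adjusted p = 0.0278). Samsn1, an adaptor protein of immune cells, stood at 1863 ± 206 and 1864 ± 139.5 (limma adjusted p = 0.983). The kinase genes Hunk and Ripk4 were too low to test. Ripk4 lay below the background level on all 6 arrays, with signals from 0.428 to 6.26, and Hunk on 2 of 3 arrays of each tissue.

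All 3 genes of RNA, ribosome and replication were tested and did not pass. Son, a protein needed for splicing of weak introns, gave 3332, 3216 and 3194 in bone marrow and 3572, 3042 and 3521 in fetal liver. Fetal liver replicate 2 lay below the bone marrow arrays and the others above them. Its log2 fold change was 0.05 ± 0.09 (interval -0.14 to 0.25, limma adjusted p = 0.662). Among its 7 probe sets the log2 fold changes ran from -0.50 to 0.64 and 1 was called, with 2284, 2207 and 2222 in bone marrow and 2609, 3016 and 2573 in fetal liver (0.28, adjusted p = 0.0487 over all probe sets). Donson, a replication fork protein, stood at 977 ± 87.4 and 1185 ± 93.1 (0.28 ± 0.11, limma adjusted p = 0.0868). Its dimmer probe set pointed the other way at -1.12, also without passing (adjusted p = 0.0508 over all probe sets). Urb1, a ribosome biogenesis factor, stood at 395 ± 72.2 and 375 ± 26.4 (-0.06 ± 0.17, limma adjusted p = 0.805).

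All 5 genes of protein folding and turnover were tested, of which 1 rose and 2 fell (17.8% and 18.3% of all genes). Cct8, a subunit of the cytosolic chaperonin that folds actin and tubulin, gave 4923, 5071 and 5250.5 in bone marrow and 6029, 6271 and 5807 in fetal liver. The groups did not overlap. It rose by a log2 fold change of 0.25 ± 0.07 (limma adjusted p = 0.0191). With any single bone marrow replicate left out it did not pass (0.23, 0.25 and 0.27 without replicates 1, 2 and 3, adjusted p = 0.0726, 0.0624 and 0.0558). Usp25, a deubiquitinating enzyme, gave 857, 863 and 971 in bone marrow and 675, 458 and 619 in fetal liver, where every array lay below the bone marrow group. It fell by 0.64 on the log2 scale (SE 0.16, limma adjusted p = 0.0126), and without bone marrow replicate 3 the fall of 0.58 did not pass (adjusted p = 0.0554). Of the 2 tested probe sets of Usp25, 1 was called lower. Hspa13, a member of the Hsp70 chaperone family, gave 1985, 1732 and 1917 in bone marrow and 1451, 1201 and 1532 in fetal liver, again without overlap. Its log2 fold change was -0.43 ± 0.12 (limma adjusted p = 0.0175), and it was -0.39 without bone marrow replicate 1 (adjusted p = 0.0567) and -0.42 without replicate 3 (0.0665). Of the 3 tested probe sets of Hspa13, 1 was called lower, and with them averaged it did not pass. The proteasome assembly factor gene Psmg1 stood at 1805 ± 79.0 and 2111 ± 77.3 (0.23 ± 0.09, limma adjusted p = 0.0667) and the ubiquitin ligase gene Ttc3 at 2302 ± 122 and 2439 ± 106 (0.08 ± 0.08, 0.472).

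All 7 genes of metabolism and redox were tested, of which 1 rose and 3 fell (17.8% and 18.3% of all genes), Cbr3 having passed the filter through bone marrow alone. Sod1, the cytosolic superoxide dismutase, gave 7898, 9023 and 8657 in bone marrow and 8635, 9336 and 8367 in fetal liver. The tissues overlapped, with bone marrow replicate 1 lowest of all. The difference was 0.04 ± 0.07 (interval -0.12 to 0.21, limma adjusted p = 0.684). Gart, an enzyme of purine synthesis, gave 1639, 1881 and 1583 in bone marrow and 2100.4, 2577 and 1969 in fetal liver. All fetal liver arrays lay above the bone marrow arrays, and it rose by a log2 fold change of 0.38 ± 0.12 (limma adjusted p = 0.0386). It did not pass without bone marrow replicate 1 (0.35, adjusted p = 0.0977), bone marrow replicate 3 (0.33, 0.137) or fetal liver replicate 2 (0.26, 0.0978). Only 1 of the 4 probe sets of Gart was called higher, and with them averaged it did not pass. Hlcs, which attaches biotin to carboxylases, stood at 142 ± 13.3 and 99.5 ± 7.63 (-0.52 ± 0.20, interval -0.96 to -0.07, limma adjusted p = 0.0698), and Pigp, of glycosylphosphatidylinositol anchor synthesis, at 1369 ± 76.4 and 1397 ± 26.0 (0.03 ± 0.09, 0.823).

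The falls in this role were those of Cbr3, Cryzl1 and Cbr1. Cbr3, a carbonyl reductase, gave 59.1, 55.4 and 73.3 in bone marrow and 26.0, 13.55 and 10.2 in fetal liver. Fetal liver was lower on every array, and its lowest lay under the background level. The mean was 62.6 ± 9.42 in bone marrow and 16.6 ± 8.32 in fetal liver. By the ratio of geometric means, with the array under background at its own value, Cbr3 was 4.06-fold lower (log2 fold change -2.02 ± 0.42, interval -2.96 to -1.08, limma adjusted p = 0.00514). The neighbouring carbonyl reductase gene Cbr1 gave 938, 1065 and 1189 in bone marrow and 918, 753 and 736 in fetal liver, where replicate 1 came close to the lowest bone marrow array. Its fall was 0.41 on the log2 scale (SE 0.13, limma adjusted p = 0.0417). It did not pass without bone marrow replicate 2 (adjusted p = 0.101) or 3 (0.168) or without fetal liver replicate 2 (0.105) or 3 (0.134), the falls then being 0.32 to 0.40. Cryzl1, related to quinone oxidoreductases, gave 1744, 1702 and 1608 in bone marrow and 1057, 1289.6 and 1290.0 in fetal liver, well apart. It fell by 0.48 on the log2 scale (SE 0.11, limma adjusted p = 0.00857), and 2 of its 4 probe sets were called lower. With its probe sets averaged it did not pass (-0.31, adjusted p = 0.112).

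**Figure D2:**
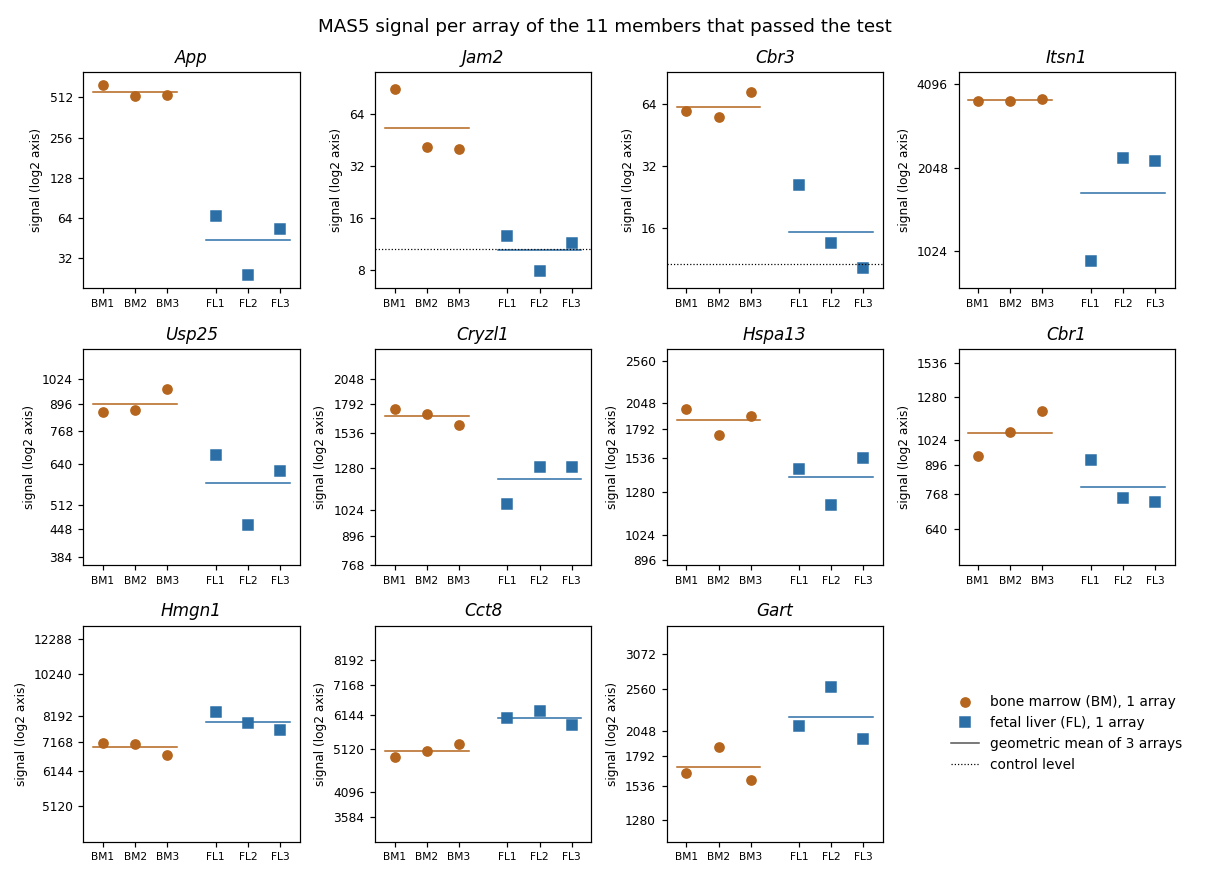
MAS5 signal (y axis of each panel, log2-spaced and not starting at 0) on each array (x axis; BM, bone marrow; FL, fetal liver; numbered by replicate) for the 11 orthologues that passed the test, with the geometric mean of 3 arrays as a line and the background level dotted in the Jam2 and Cbr3 panels. The tissues do not overlap in any panel, and fetal liver replicate 1 stands apart for Itsn1 at 939 against 2212 and 2172.

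The largest falls were among the 9 genes of membrane, adhesion, traffic and proteases, where 3 of 7 tested members fell and none rose. Over all genes tested 18.3% fell and 17.8% rose, and Jam2, among the 3, passed the filter through bone marrow alone. App encodes the amyloid precursor protein, a membrane protein found on platelets as well as neurons. It gave 637, 522 and 534 in bone marrow and 66.5, 23.9 and 52.6 in fetal liver. Each fetal liver array was far below each bone marrow array, and the fetal liver arrays spread more widely in relative terms. App fell from a mean of 564 ± 63.2 to 47.7 ± 21.7, which is 12.8-fold by the ratio of geometric means (log2 fold change -3.68 ± 0.34, interval -4.46 to -2.91, limma adjusted p = 5.60e-05). Its other tested probe set gave 131, 133 and 156 in bone marrow and 15.8, 19.0 and 15.5 in fetal liver (-3.07 ± 0.27, adjusted p = 3.41e-05 over all probe sets). That dimmer probe set passed the filter through bone marrow alone and had to differ, so its call is a description only. The call of App as a gene held in all 20 alternative settings, between -3.99 and -3.25.

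Jam2, a junctional adhesion molecule of endothelial and blood progenitor cells, gave 89.5, 41.4 and 40.1 in bone marrow and 12.6, 7.88 and 11.4 in fetal liver. Bone marrow replicate 1 stood above the others, and the fetal liver arrays lay near the background level with 1 of them under it. Jam2 was at least 4.60-fold lower in fetal liver (log2 fold change -2.35 ± 0.45, limma adjusted p = 0.00342), the fold being taken against the fetal liver mean with the array below background raised to that level. As Jam2 passed the filter through its bone marrow signal alone, its difference was in part fixed by that choice. With any bone marrow array left out Jam2 fell under the signal filter and was not tested.

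Itsn1, a scaffold of clathrin-mediated endocytosis, gave 3572, 3581 and 3639 in bone marrow and 939, 2212 and 2172 in fetal liver. The bone marrow arrays were almost equal, and fetal liver replicate 1 was far below the others of its tissue. Itsn1 fell from a mean of 3597 ± 36.2 to 1774 ± 724, which is 2.18-fold by the ratio of geometric means (log2 fold change -1.12 ± 0.28, interval -1.75 to -0.49, limma adjusted p = 0.0128). Without fetal liver replicate 1 the fall was 0.71 on the log2 scale (adjusted p = 1.78e-04), and with ordinary t statistics the call was lost (adjusted p = 0.125). On 4 of its 5 probe sets it was called lower, and the second brightest gave 2911, 2931 and 2887 in bone marrow and 733, 1406 and 1670.2 in fetal liver, with replicate 1 lowest again. The summed signal of the megakaryocyte markers was also lowest on that array, and its part in the value was not tested.

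The other members of this role did not pass. Synj1, a phosphoinositide phosphatase of endocytosis, stood at 1123 ± 190.3 and 876 ± 82.0 (-0.35 ± 0.14, limma adjusted p = 0.0899), and passed without bone marrow replicate 1 (-0.49, adjusted p = 0.0223). Its dimmest tested probe set was called lower at 109, 46.5 and 66.9 in bone marrow and 30.8, 5.04 and 18.6 in fetal liver, 1 array under the background level (-2.29, adjusted p = 0.0227 over all probe sets). C2cd2 stood at 792 ± 75.7 and 749 ± 60.1 (-0.08, adjusted p = 0.655). The virus receptor and adhesion gene Cxadr (40.4 ± 9.39 and 28.4 ± 14.6) and the extracellular protease gene Adamts1 (30.4 ± 15.5 and 38.5 ± 1.73) had intervals from -1.77 to 0.44 and from -0.47 to 1.39. Both intervals include a change of 2-fold, which these arrays could not show at such low signal. Adamts5, a related protease, gave 27.0, 1.03 and 7.88 in bone marrow and 15.3, 18.4 and 22.2 in fetal liver and was not tested. Bace2, a protease that can cleave the amyloid precursor protein, lay between 3.09 and 12.6 and was below the background level on 2 of 3 arrays of each tissue. Rwdd2b, to which no role was assigned, stood at 897 ± 6.63 and 965 ± 4.66 (0.11 ± 0.10, adjusted p = 0.431).

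**Figure D3:**
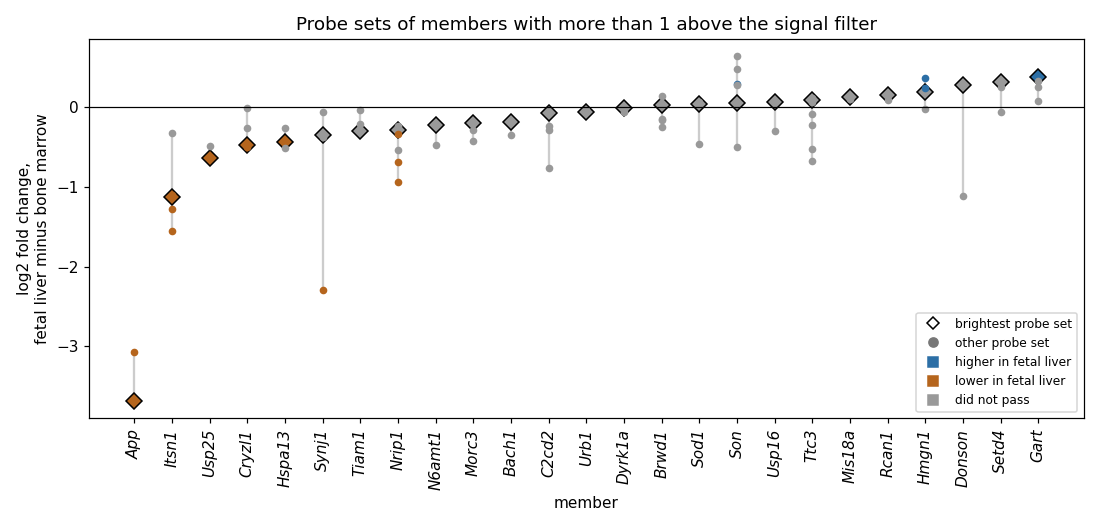
Tissue difference in log2 signal (y axis, fetal liver minus bone marrow) of every probe set above the signal filter for the 25 orthologues that had more than 1 (x axis), with the brightest as a diamond and colour for the call adjusted over all probe sets. No orthologue has probe sets called in both directions, and Hmgn1, Son, Synj1 and Nrip1 have called probe sets although the brightest was not called. The called probe set of Synj1 and the dimmer one of App passed the filter through bone marrow alone.

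Counted by probe set, 100 of the 132 probe sets of the members lay above the filter, and 25 members had more than 1 of them. When every probe set was adjusted together 26.8% of all probe sets were called, and no member was called in both directions. Hmgn1, Son, Cct8 and Gart had called rises. App, Jam2, Cbr3, Itsn1, Cryzl1, Usp25, Hspa13, Nrip1 and Synj1 had called falls. The called probe sets of Jam2, Cbr3 and Synj1, and the dimmer one of App, passed the filter through bone marrow alone. Those calls are a description only. For Hmgn1, Son, Nrip1 and Synj1 the brightest probe set was not among those called. By this adjustment the reported probe sets of Cbr1 (adjusted p = 0.0546) and Hmgn1 (0.0633) lost their calls.

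All 44 genes lie on mouse chromosome 16 in the RefSeq annotation of assembly GRCm38.p6. The members that fell included neighbours. Cbr1 and Cbr3 follow each other in the same orientation with no other protein-coding gene between them. Cryzl1 and Itsn1 lie head to head, their starts 569 bases apart, and Jam2 and App are separated by 2 protein-coding genes, Gabpa, which did not pass (adjusted p = 0.983), and Atp5j, which rose (0.27 ± 0.08, adjusted p = 0.0340). The head-to-head pair Gart and Son, 852 bases apart, had 1 gene that rose and 1 that did not pass, and in the pair Pigp and Ttc3 neither passed. Runx1, next to Setd4 on the side away from Cbr1, was higher in fetal liver (0.34 ± 0.10, adjusted p = 0.0254), and Setd4 itself did not pass.

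**Figure D4:**
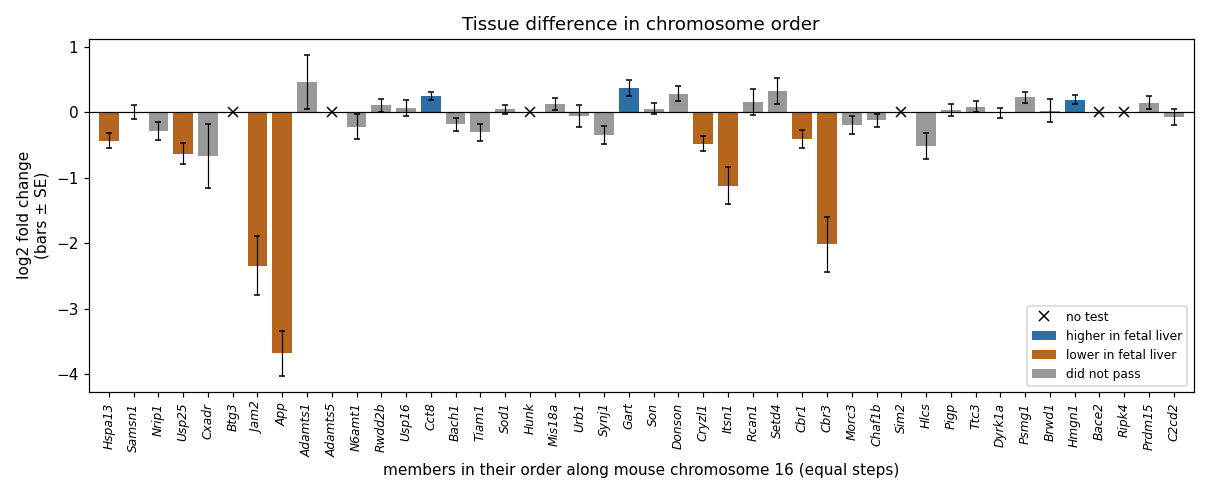
Tissue difference in log2 signal (y axis, fetal liver minus bone marrow; bars with SE) of the orthologues in their order along mouse chromosome 16 (x axis, equal steps), with crosses for the 6 that were not tested. Jam2 with App, Cryzl1 with Itsn1 and Cbr1 with Cbr3 are the members next to each other in the set that both fell.

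The promoters of the members that fell as neighbours, and of App, which had the largest fall, are shown for their sequence context. The arrays do not measure which start was used. RefSeq promoter entries were found for 36 of the 44 members, as 48 windows, and Jam2 had no entry in that table. Each sequence is the 250 bases before the gene's start, 5′ to 3′ on the gene's own strand, in assembly GRCm38.p6. Capitals mark a GC box, GGGCGG, the element bound by Sp1-type factors, or a GATA hexamer, both searched on both strands. As hexamers counted AGATAA and AGATAG, and also those that begin with T, TGATAA as well as TGATAG. The windows are App at chr16:85173708-85173957 (minus strand), Cryzl1 at chr16:91728803-91729052 (minus), Itsn1 at chr16:91729121-91729370 (plus), Cbr1 at chr16:93607587-93607836 (plus) and Cbr3 at chr16:93682969-93683218 (plus).
App: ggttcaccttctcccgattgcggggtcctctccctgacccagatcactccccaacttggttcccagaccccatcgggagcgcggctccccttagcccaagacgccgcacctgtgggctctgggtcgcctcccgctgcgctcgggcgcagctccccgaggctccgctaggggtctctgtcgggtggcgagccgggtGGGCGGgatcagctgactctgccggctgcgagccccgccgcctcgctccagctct
Cryzl1: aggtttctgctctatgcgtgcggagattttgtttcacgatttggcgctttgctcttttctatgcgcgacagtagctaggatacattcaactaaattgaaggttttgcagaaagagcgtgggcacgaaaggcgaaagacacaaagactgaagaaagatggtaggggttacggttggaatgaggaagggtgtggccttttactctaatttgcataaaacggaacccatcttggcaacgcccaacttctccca
Itsn1: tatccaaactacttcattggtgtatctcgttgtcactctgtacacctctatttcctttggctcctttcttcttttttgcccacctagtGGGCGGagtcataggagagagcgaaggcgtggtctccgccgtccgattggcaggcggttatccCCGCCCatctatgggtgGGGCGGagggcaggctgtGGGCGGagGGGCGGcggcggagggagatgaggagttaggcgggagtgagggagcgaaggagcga
Cbr1: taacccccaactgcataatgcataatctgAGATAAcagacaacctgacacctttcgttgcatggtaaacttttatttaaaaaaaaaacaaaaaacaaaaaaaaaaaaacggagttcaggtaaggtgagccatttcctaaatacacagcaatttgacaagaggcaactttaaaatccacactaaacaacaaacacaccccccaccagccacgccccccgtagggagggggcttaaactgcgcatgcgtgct
Cbr3: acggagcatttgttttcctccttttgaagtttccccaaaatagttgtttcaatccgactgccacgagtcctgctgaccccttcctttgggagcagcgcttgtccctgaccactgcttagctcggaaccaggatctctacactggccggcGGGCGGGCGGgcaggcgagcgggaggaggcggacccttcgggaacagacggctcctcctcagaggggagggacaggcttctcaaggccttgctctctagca

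App had 1 GC box in its window. Itsn1 had 5, of which 1 was on the opposite strand, and Cbr3 had 2 that overlap each other. Cbr1 had 1 GATA hexamer, and the Cryzl1 window held neither motif. Over all windows of the members a GC box was present in 32 of 48 (66.7%) and a GATA hexamer in 8 (16.7%), against 32.7% and 26.5% of the 32851 promoter windows of the table. The median GC content was 65.8% in the windows of the members and 52.4% over all. A match describes these letters and is not evidence of a bound site.

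Beyond the members, 102 further mouse orthologues of human chromosome 21 genes were listed, of which 65 were tested, 12 rose and 13 fell. Over all genes tested 17.8% rose and 18.3% fell, which is the measure for these counts and for those by segment below. Among those on mouse chromosome 16 other than the Runx1, ETS, interferon and respiratory chain genes, 3 of 15 tested genes rose and 3 fell. Dop1b, near Cbr3, fell from 441 ± 54.3 to 189 ± 6.44 (log2 fold change -1.21 ± 0.16, limma adjusted p = 3.55e-04), Tmem50b fell (-1.49 ± 0.21, adjusted p = 7.03e-04) and B3galt5, a galactosyltransferase, rose (2.40 ± 0.36, adjusted p = 8.56e-04). Of 12 tested Runx1, ETS, interferon and respiratory chain genes 3 rose and 4 fell, among them the interferon receptor chain Ifnar2 (-0.77, adjusted p = 9.07e-04) and the respiratory chain gene Ndufv3 (0.39, 0.0127). Mx1, an interferon-induced antiviral protein, was at least 8.61-fold lower in fetal liver (adjusted p = 0.00408), and on 2 of the 3 fetal liver arrays it lay under the background level. The geometric means in fetal liver of Mx1 (6.03), of Icosl below (13.1) and of Trpm2 (10.7) lay under the filter's signal of 22.9. Trpm2 is among the 5 lower of 26 genes below. All of them passed the filter through bone marrow alone, so their falls were in part fixed by that choice. The counts that include them are a description only. The stretches of human chromosome 21 whose mouse orthologues lie on other chromosomes gave 2 of 12 genes higher and 1 lower (Ubash3a at 1.48 and Sik1 at -1.28), and 4 of 26 higher and 5 lower (Icosl at -4.46, Col18a1 at 2.34 and Dip2a at 0.68).

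**Figure D5:**
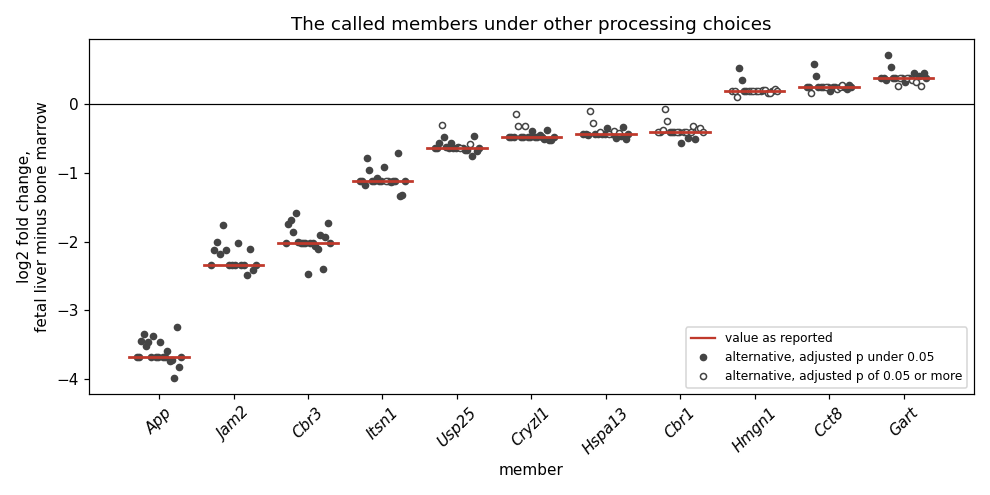
Tissue difference in log2 signal (y axis, fetal liver minus bone marrow) of the 11 orthologues that passed the test (x axis), with the reported value as a line and each alternative processing as a point, open where the adjusted p was 0.05 or more. App is filled in all 20 alternatives, Jam2 and Cbr3 in those that tested them, which rest on their bone marrow signal, and Hmgn1 and Cbr1 are open in 13 and 12.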

How the data were processed

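RNA of 6 sorted progenitor samples, 3 per tissue, was hybridised to Affymetrix mouse arrays. The authors deposited 1 linear intensity signal per probe set and array. MAS5 made them, per the submitters' processing notes, which name no version. Every array had a trimmed mean of 500 (2% cut at each end), so arrays were scaled to that mean. MAS5 adds no offset, and ratios at low signal are noisy. The number of arrays limits the precision, and an exact permutation test of 3 against 3 cannot go below 0.1.

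Of 45037 probe sets that are not controls, the platform annotation gave 34945 a single symbol, 932 several and 9160 none. Of the 34945, 34741 matched a RefSeq gene table (GRCm38.p6) by Entrez identifier and 0 symbols needed updating. Signals were taken as log2 without an offset. Probe sets with a mean over the 40th percentile (a signal of 22.9) were kept and the brightest used per gene. limma 3.58.1 (R 4.3.3) fitted tissue with an intensity-trended prior. Benjamini-Hochberg adjustment ran over 11645 genes, with a threshold of 0.05. The background level was the 95th percentile of 27 unspiked control probe sets. Every member was named. Values per array were given for members called at 2-fold or more, those most studied in Down syndrome, and the 3 brightest, and for the other called members and some probe sets by a choice made after their values were seen. Of other genes, only Gata1, sort and cell-type markers, neighbours of members and up to 3 orthologues per list were named, apart from Trpm2. Runx1, Gabpa and Atp5j were named as neighbours, and Trpm2 for the way it passed the filter. The members, lists and tests were chosen with earlier results of these data known. The fit was tested on simulated data. Replicate numbers did not pair the samples. Sca-1 had no probe set of 1 symbol and was not analysed here. Alternatives covered the filter, the offset, normalization, probe set summary, variance prior, array weights, a replicate block and leaving out each array. Tables used pandas 2.3.3 and numpy 2.4.6 under Python 3.11.15, and figures matplotlib 3.10.9.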

Additional observations from a re-analysis of the deposited data

How the results depend on the processing

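Over 20 alternative settings, 670 of 751 values of single members kept their side of the threshold, 38 of them values without a call whose sign changed, 49 lost a call, 31 gained one and 1 reversed with a call. The reversal was Dyrk1a, at 0.33 under median centring. App kept its call in all 20 settings and Itsn1 in 19. Cbr3 and Jam2 were called in the 19 and 16 settings that tested them, but they enter a test only through their bone marrow signal, so those counts say nothing of stability.

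The count of members higher in fetal liver, 3 as reported, was 1 under quantile normalization or when probe sets were averaged per gene, 0 with no variance trend, 5 with array weights, 16 under median centring and 7 when centred over probe sets above the filter, a choice made after seeing the data. Leaving out 1 array gave 0 to 2, with 0 without bone marrow replicate 1 or 3 and 1 without replicate 2. The count lower, 8 as reported, was 4, 5 and 5 under median centring, centring above the filter and ordinary t statistics, and 4 to 10 when an array was left out, with 4 without bone marrow replicate 3. Over all genes the 4208 calls became 6725 under median centring, 2790 with ordinary t statistics and 2813 to 4477 without 1 array (2813 without bone marrow replicate 3). The 25 calls among the other orthologues became 39 under median centring or with array weights, 12 with ordinary t statistics and 14 to 25 without 1 array, the 14 without bone marrow replicate 3.

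The replicate numbers carried no pairing: deviations of same-numbered samples correlated at -0.109 to 0.071 and those of other pairs at -0.052 to 0.145. With the replicate block 3 members were higher and 7 lower, and Cbr1 was the call lost (adjusted p = 0.0780). Signal over background limited Jam2 and Cbr3, whose fetal liver arrays reached the background level, and the 5 members that were not tested.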

Other observations

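Btg3, an antiproliferative gene of the set, was represented by a probe set shared with the gene model Gm7334, so its signal cannot be given to either. That probe set read 2085, 1584 and 1677 in bone marrow and 965, 1297 and 1182 in fetal liver. The tissues did not overlap, and the shared signal was lower in fetal liver by 0.63 on the log2 scale when every probe set was adjusted together (SE 0.15, limma adjusted p = 0.0102). The 4 further probe sets of Jam2 lay below the signal filter and were not tested.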
